A study of Mus musculus with 6 samples.

Results

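The genes described here are those of the major histocompatibility complex (MHC) class II pathway of antigen presentation: Cd74, H2-Aa, H2-Ab1, H2-Eb1, H2-DMa, Ctss and Ciita. They were chosen by symbol. All probe sets whose platform annotation named exactly 1 gene, that gene being one of these 7, were taken, which gave 15 of the 44935 probe sets used, for 7 of the 18163 genes they name. H2-Aa had 4, H2-Ab1 and Ciita had 3 each, H2-DMa had 2, and Cd74, H2-Eb1 and Ctss had 1 each. No probe set that named several genes included a member.

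RNA came from whole adrenals of 3-month-old males of the strain labelled Per2Brdm1/Cry1-/- on a C57BL6x129Sv background. Every group carries both the Per2Brdm1 and the Cry1-/- allele, which affect repressors of the clock. The labels call the animals clock-deficient. They were entrained to light and dark and then held in constant darkness. Lights off was followed by 46 h or by 54 h until dissection, and 3 arrays (replicates 1, B and C) represent either time. The comparison between these times, 8 h apart, is the only one among the arrays. No wild-type gland was analysed here, and the labels do not say whether an array held 1 animal or a pool.

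Class II molecules display peptides from endocytosed proteins to CD4 T cells. An alpha and a beta chain, such as H2-Aa and H2-Ab1 in the mouse molecule I-A, form the peptide groove. The invariant chain, encoded by Cd74, fills that groove during transport and is cut by proteases that include cathepsin S (Ctss), after which the H2-DM dimer (H2-DMa with H2-DMb1 or H2-DMb2) exchanges its remnant for antigenic peptide. Ciita encodes the coactivator that switches the class II genes on. In tissues such as the adrenal, which holds many resident macrophages, class II expression is known chiefly from macrophages, dendritic cells and B cells, and can be induced in other cells by interferon gamma.

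Ciita does not bind DNA itself but is recruited by factors on the X box and Y box of class II promoters. The stretches below show the Y box core of the members H2-Aa and H2-Eb1, beside class II genes of the same region of chromosome 17, because these boxes are the known route by which Ciita reaches class II promoters. Of the members shown, H2-Eb1 alone holds both of the exact letter strings given below on the strand of the gene. A stretch without these letters may still hold a box in other letters, which was not searched for. RefSeq promoters (build GRCm38.p6, 250 bases before to 50 after a start) were matched for 4 of the 7 members, H2-Aa, H2-Eb1, H2-DMa and Ctss, and for 5 other class II genes. Capitals mark the Y box core GATTGG, an inverted CCAAT element, and the X box core ACNGATG, where they lie on the strand of the gene. The motifs were worded after these promoters had been looked at, and they do not overlap each other. Each line reads 5′ to 3′ on the strand of the gene.
H2-Aa (chr17:34287853-34287922, minus strand): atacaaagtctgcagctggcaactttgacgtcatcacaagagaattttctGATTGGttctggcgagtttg
H2-Eb1 (chr17:34305757-34305826, plus strand): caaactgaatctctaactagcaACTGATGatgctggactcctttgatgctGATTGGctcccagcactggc
H2-Eb2 (chr17:34325524-34325593, plus strand): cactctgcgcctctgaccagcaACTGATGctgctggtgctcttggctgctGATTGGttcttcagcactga
H2-DMb1 (chr17:34153079-34153148, plus strand): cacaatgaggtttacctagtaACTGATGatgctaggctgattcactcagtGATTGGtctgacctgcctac
H2-DMb2 (chr17:34145108-34145177, plus strand): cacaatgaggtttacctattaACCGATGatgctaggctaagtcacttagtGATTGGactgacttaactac
H2-Ob (chr17:34238797-34238866, plus strand): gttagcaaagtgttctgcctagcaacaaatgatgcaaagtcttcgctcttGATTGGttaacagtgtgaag
H2-Oa (chr17:34092285-34092354, plus strand): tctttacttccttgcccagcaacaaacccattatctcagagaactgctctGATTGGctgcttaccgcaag

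The Y box core lay 49 bases before the start in H2-Aa and 60 before it in H2-Eb1. H2-Eb1 and H2-Eb2 carried the X box core 28 bases ahead of it, start to start, and H2-DMb1 and H2-DMb2 carried it 29 bases ahead. H2-Aa, H2-Ob and H2-Oa did not hold the letters ACNGATG in these stretches. Elsewhere in its window H2-Aa held them on the opposite strand. H2-Oa held them on the strand of the gene, 137 bases before the start. Searched on both strands, GATTGG occurred in 16.1% and ACNGATG in 9.85% of all 32851 promoters of 300 bases. The X core within 40 bases ahead of the Y core on the same strand occurred in 15 promoters (0.0457%), and 4 of those belonged to H2 genes, the 4 just named. Of the other members, H2-DMa has a pair of start sites in the table, and GATTGG occurred in the window of only 1 of them, 199 bases before the start. The Ctss window held ACNGATG at 206 bases and no GATTGG. A match is a description of these letters and not evidence of binding.

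The values are linear intensities deposited for an Affymetrix mouse array, used as log2(intensity + 16). Array medians ran from 204 to 217 units and the highest value was 17879. A probe set was tested if its mean on the log2 scale lay above the 40th percentile, which corresponds to 139 units. All 12 adrenal cortex and medulla markers checked, among them Cyp11a1, Star, Th and Chga, lay above that limit and their summed intensity was 138865 to 146748 units at 46 h and 131171 to 145108 at 54 h, as the labelled tissue would have. All 12 had a log2 change from 46 h to 54 h below 0, and 1 reached an unadjusted limma p of 0.05. Over all 26961 probe sets tested with limma, 31 passed at an adjusted p of 0.05 (0.115%), and the median log2 change was -0.02. Precision is limited by having 3 arrays a group, and every p-value reflects only how these arrays scatter, which may be technical.

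Cd74 encodes the invariant chain. Its probe set read 10305, 9824 and 10165 units at 46 h and 9038, 9458 and 9078 at 54 h. All 54 h values lay below all 46 h values, with means of 10098 ± 247 and 9191 ± 232 units (SD, n = 3 each). The difference was 1.10-fold, a log2 change of -0.14 ± 0.04 SE (95% confidence interval -0.22 to -0.05). It did not pass limma over all probe sets (unadjusted p = 0.00491, adjusted p = 0.266), and the unadjusted p stayed under 0.05 whichever of the 6 arrays was omitted, with changes from -0.16 to -0.12. In a limma fit without an intensity trend the unadjusted p for Cd74 was 0.107.

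**Figure D1:**
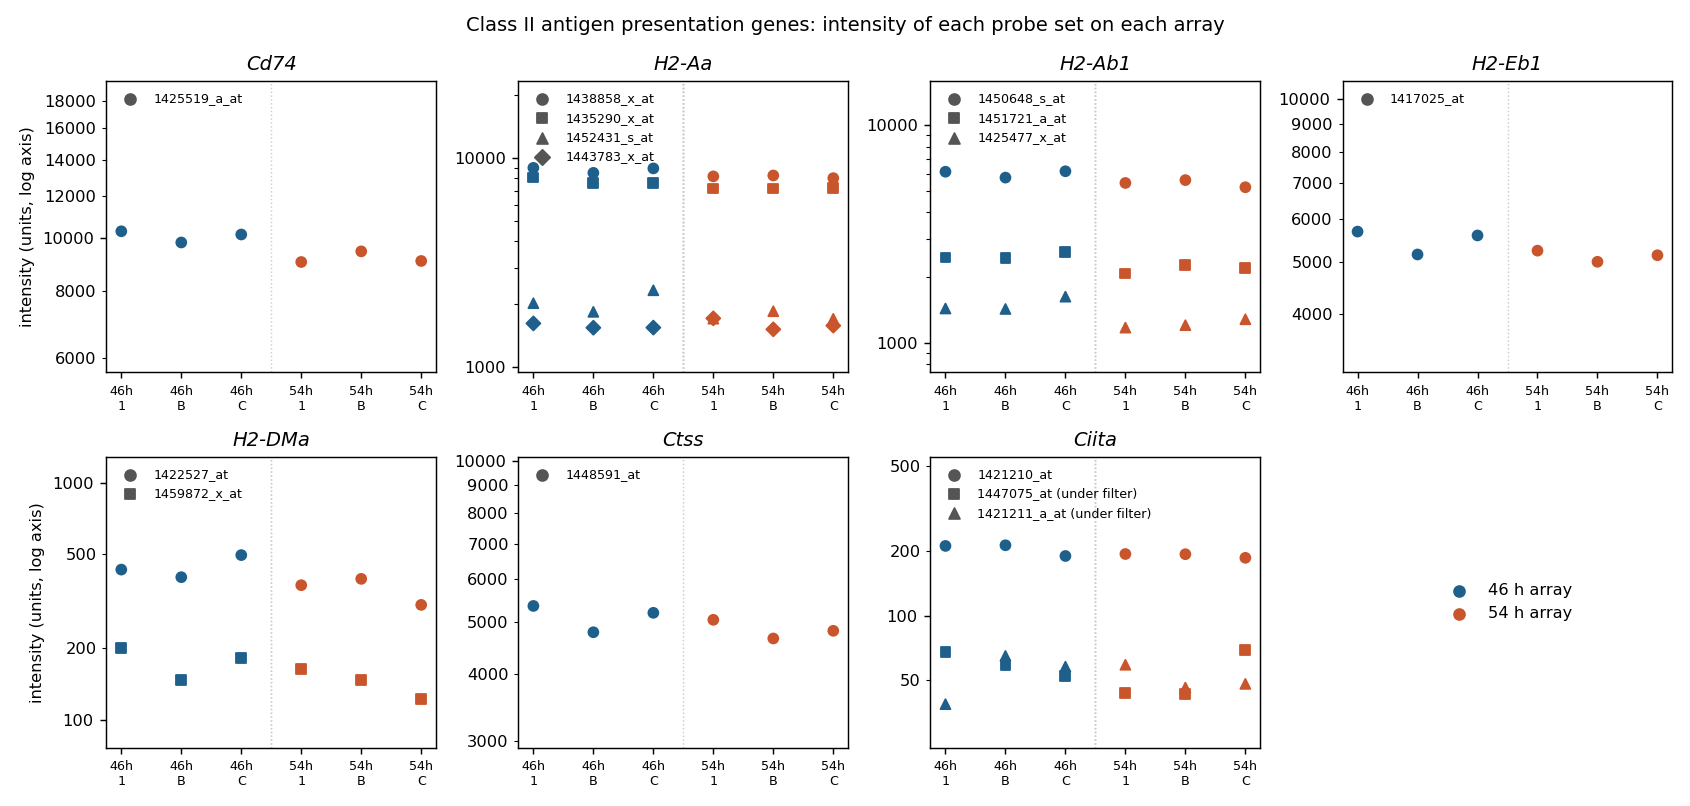
Intensity in deposited units (log axis) of each of the 15 member probe sets on each of the 6 arrays, 1 panel per gene, with 46 h arrays in blue, 54 h arrays in orange and a symbol for each probe set. Cd74 reads 9824 to 10305 units at 46 h and 9038 to 9458 at 54 h, and 2 of the 3 Ciita probe sets lie under the filter at 139 units.

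H2-Aa encodes the alpha chain of I-A and has 4 probe sets. The brightest, 1438858_x_at, read 8988, 8505 and 8933 units at 46 h and 8183, 8264 and 8026 at 54 h. The time points did not overlap, and the log2 change was -0.11 ± 0.04 SE (limma unadjusted p = 0.0180, adjusted p = 0.380). The next, 1435290_x_at, read 8085, 7599 and 7589 and then 7160, 7161 and 7198 units, again without overlap and with a log2 change of -0.11 ± 0.04 SE. Probe set 1452431_s_at read 2026, 1842 and 2336 and then 1709, 1855 and 1706 units, a log2 change of -0.23 ± 0.10 SE. Here 54h replicate B lay just above 46h replicate B, so the groups touched. Without 46h replicate C its log2 change was -0.14 (limma unadjusted p = 0.139).

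The fourth H2-Aa probe set, 1443783_x_at, did not follow the others. It read 1622, 1547 and 1549 units at 46 h and 1715, 1520 and 1583 at 54 h, a log2 change of 0.03 ± 0.08 SE (interval -0.15 to 0.20). Over the 6 arrays its correlation with the other H2-Aa probe sets was -0.38 to -0.04, whereas theirs with each other were 0.60 to 0.89. These correlations are descriptions over arrays that share their scaling. Affymetrix gives the suffix x to probe sets whose probes may match other sequences and s to those that match several transcripts, and whether 1443783_x_at reads H2-Aa was not tested.

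H2-Ab1 encodes the beta chain of I-A, and its 3 probe sets kept the groups apart. Probe set 1450648_s_at read 6125, 5755 and 6155 units at 46 h and 5438, 5605 and 5197 at 54 h, a 1.11-fold difference and a log2 change of -0.15 ± 0.05 SE. Probe set 1451721_a_at read 2470, 2449 and 2626 and then 2084, 2271 and 2200 units, with a log2 change of -0.20 ± 0.07 SE. The dimmest, 1425477_x_at, read 1439, 1432 and 1631 and then 1175, 1206 and 1284 units, with a log2 change of -0.29 ± 0.09 SE (interval -0.49 to -0.10). Every H2-Ab1 probe set was lower on each 54 h array than on any 46 h array. None passed limma over all probe sets (adjusted p between 0.308 and 0.355, unadjusted p between 0.00787 and 0.0149). Their correlations with each other over the 6 arrays were 0.79 to 0.95, although the sizes of the change differed.

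H2-Eb1 encodes the beta chain of the other classical molecule, I-E. C57BL/6 mice carry an H2 haplotype in which the partner chain H2-Ea is not expressed, but the labels do not give the haplotype of these mixed-background mice. The H2-Eb1 probe set read 5690, 5161 and 5597 units at 46 h and 5246, 5003 and 5144 at 54 h. The groups overlapped, since 54h replicate 1 exceeded 46h replicate B, and the log2 change was -0.09 ± 0.05 SE (interval -0.21 to 0.02, limma adjusted p = 0.585). The brightest H2-Ea probe set, 1422891_at, read 235, 312 and 177 units at 46 h and 250, 223 and 284 at 54 h, with no order between the times (log2 change 0.09 ± 0.19 SE).

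H2-DMa encodes the alpha chain of the peptide editor. Its brighter probe set, 1422527_at, read 430, 400 and 495 units at 46 h and 370, 393 and 305 at 54 h. The groups did not overlap, but 54h replicate B came within a few units of 46h replicate B, and the log2 change was -0.30 ± 0.13 SE (interval -0.60 to -0.0045, limma unadjusted p = 0.0472, adjusted p = 0.488). The lowest value was that of 54h replicate C. The dimmer probe set, 1459872_x_at, read 201, 147 and 183 and then 164, 147 and 122 units, with overlap and a log2 change of -0.26 ± 0.16 SE. The H2-DMa probe sets correlated at 0.82 over the 6 arrays. Without 54h replicate C the log2 changes were -0.20 for 1422527_at (limma unadjusted p = 0.202) and -0.16 for 1459872_x_at, and without 46h replicate 1 the latter had -0.17.

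Ctss, the protease that trims the invariant chain, read 5353, 4780 and 5197 units at 46 h and 5043, 4654 and 4810 at 54 h. The groups overlapped, with a log2 change of -0.08 ± 0.06 SE (interval -0.21 to 0.05, limma adjusted p = 0.694). Leaving out single arrays gave Ctss changes of -0.04 (without 46h replicate 1), -0.05 (without 54h replicate B) and -0.13 (without 46h replicate B). Ciita, the coactivator, was tested through 1421210_at alone, which read 212, 213 and 190 units and then 194, 194 and 186. These groups overlapped at 46h replicate C, with a log2 change of -0.09 ± 0.11 SE (interval -0.35 to 0.17, limma adjusted p = 0.841), and -0.14 without 46h replicate C. The other Ciita probe sets, 1447075_at and 1421211_a_at, read 42.9 to 68.6 and 38.4 to 64.6 units, under the filter, and the 3 Ciita probe sets correlated at -0.36 to 0.30 with each other. The Ciita interval allows a difference in either direction.

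**Figure D2:**
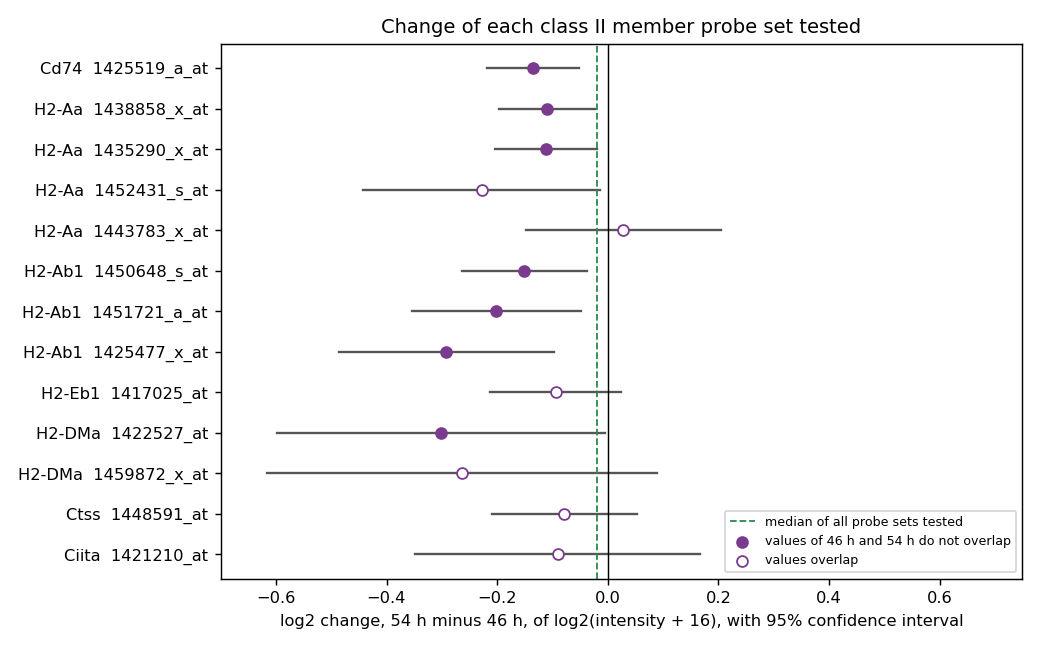
Log2 change from 46 h to 54 h of the 13 member probe sets tested, with 95% confidence intervals from limma, filled where the values of the time points do not overlap; the dashed line is the median of all probe sets tested, -0.02. Of the 13 points 12 lie below 0, and the exception is H2-Aa 1443783_x_at at 0.03.

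Of the 15 member probe sets 13 passed the filter, and 0 of the 13 passed limma at an adjusted p of 0.05 (lowest adjusted p 0.266), against 0.115% of all probe sets. With an unadjusted limma p under 0.05 there were 8 of 13, all lower. That held for 5.75% of the whole table on the lower side and 4.34% on the higher side. The values did not overlap, lower at 54 h, for 7 of 13, against 9.05% of all probe sets. Non-overlap with higher values at 54 h held for 0 of 13 and for 1747 of all 26961. Of the 13, 12 had a log2 change below 0, against 55.6% of all probe sets. All 12 adrenal cortex and medulla markers had a change below 0 too (median -0.06). The median of the 13 was -0.14 beside -0.02 for all probe sets. These shares are descriptions and not a test, because the members were chosen with earlier results of these data known. Probe sets of 1 gene share a target and are not independent, so the same was counted by gene, each read from its brightest probe set. All 7 genes had a change below 0, with a median of -0.11. Of these, 4 (Cd74, H2-Aa, H2-Ab1 and H2-DMa) reached an unadjusted p of 0.05 in limma, and those 4 did not overlap. The shares of all genes read from their brightest probe sets were not computed, so these counts have no matching background. With the probe sets of a gene averaged, 2 genes reached that level, both lower, against 6.36% of all 13780 genes on the lower side. They were Cd74 and H2-Ab1 (-0.21 ± 0.06 SE, limma unadjusted p = 0.00517, adjusted p = 0.274). The intervals of 11 of the 13 probe sets excluded a 1.5-fold change in either direction, the exceptions being those of H2-DMa. The same held for 23504 of all 26961 probe sets tested, so this does not set the members apart.

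The number that reached this level depended on single arrays, while the size of the change did so less. Of the 13, 3 reached it without 46h replicate 1, where 4.06% of the whole table did so on the lower side. The count was 10 without 46h replicate B (6.50% of the table), 4 without 46h replicate C (6.90%) and 6 without 54h replicate 1 (4.01%). It was 8 without 54h replicate B (7.81%) and 3 without 54h replicate C (2.81%). The member median ran from -0.16 to -0.12 over these fits and was -0.12 in both that left 3, with 12 of 13 below 0. A limma fit with no trend, which leaves every change as it was, also left 3 (5.26%). They were H2-DMa 1422527_at and the H2-Ab1 probe sets 1451721_a_at and 1425477_x_at, so Cd74 and H2-Aa no longer reached the level. The count was 7 with quantile normalization (5.76%) and 6 with arrays centred on their medians (4.48%). Those scalings move the whole table: among table-wide calls of that kind 43.0% were higher at 54 h as deposited, 50.4% after quantile normalization and 58.8% after centring. The direction of the members held under both, with 12 of 13 below 0 and medians of -0.13 and -0.11.

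Array by array, the mean deviation of the 7 genes from their 46 h level, on the log2 scale, was 0.03, -0.06 and 0.03 for the 46 h replicates 1, B and C. The 54 h replicates stood at -0.11, -0.11 and -0.19 in that order of labels. Array 46h replicate B was thus the lowest of its group, and 54h replicate C the lowest of all, where H2-DMa alone stood at -0.51. The place of 46h replicate B was not particular to the members. It was also the lowest 46 h array for the liver (-0.40), adipose (-0.23), endothelial (-0.15) and macrophage (-0.12) marker means. The same held for the dendritic cell, class I, adrenal and other class II lists. In the interferon gamma, B cell and T and NK cell lists another 46 h array was lowest. Over the 6 arrays the brightest probe sets of Cd74, H2-Aa and H2-Ab1 correlated with each other at 0.96 to 0.98. H2-Eb1 was closest to Ctss (0.97), and Ciita correlated with the other 6 at 0.22 to 0.56. All 21 pairs are over arrays that share a scale and 2 time points, and these values are descriptions.

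**Figure D3:**
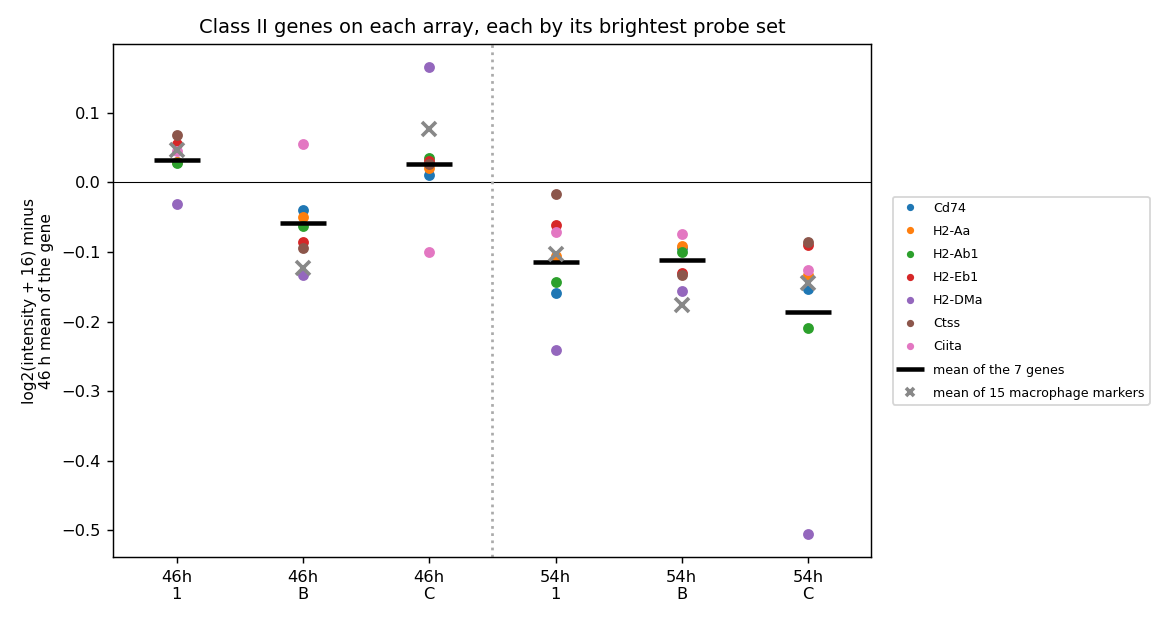
Deviation of each member gene, by its brightest probe set, from its own 46 h mean on each array (log2 scale), with the mean of the 7 genes as a black bar and the mean of 15 macrophage markers as a grey cross. The bar stands between -0.06 and 0.03 on the 46 h arrays and between -0.19 and -0.11 on the 54 h arrays.

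Of the other class II pathway genes, 22 of 23 listed had a probe set and 18 of these passed the filter. None of the 18 passed limma over all probe sets (0, lowest adjusted p 0.306), 3 were lower and 0 higher at an unadjusted p of 0.05, and the median log2 change was 0.00, with 9 below 0 and 9 above. Cathepsin L, Ctsl, a protease that also cuts the invariant chain, read 6894, 6584 and 6857 units and then 6083, 6214 and 6155, a log2 change of -0.14 ± 0.04 SE. Cathepsin B, Ctsb, had -0.09 ± 0.03 and the costimulatory ligand Cd86 -0.28 ± 0.12. All 3 kept the times apart, lower at 54 h. In the same list 1 gene, Creb1, kept them apart with higher values at 54 h (1044, 1157 and 1193 units and then 1200, 1214 and 1249). The endosomal protease legumain, Lgmn, had -0.25 ± 0.12 SE with overlapping values.

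The remaining genes of the pathway had values on both sides of 0. Ifi30, the lysosomal thiol reductase of antigen processing, had a log2 change of 0.09 ± 0.08 SE, the cathepsin inhibitor Cst3 had 0.01 ± 0.04, and Ctsd had -0.06 ± 0.07. H2-DMb2, the partner of H2-DMa, had 0.02 ± 0.12 SE beside -0.30 ± 0.13 for H2-DMa; the difference between them was not tested. The beta chain gene H2-Eb2 had 0.20 ± 0.19. Among the factors that sit on the X and Y boxes, the log2 changes were -0.03 ± 0.13 for Rfx5, -0.19 ± 0.12 for Rfxap, 0.00 ± 0.10 for Rfxank, -0.06 ± 0.14 for Nfya, 0.03 ± 0.12 for Nfyb, 0.15 ± 0.10 for Nfyc and 0.11 ± 0.09 for Creb1. The intervals of 17 of the 18 excluded a 1.5-fold change, as did those of 23504 of all 26961 probe sets tested. H2-Oa and H2-Ob, which restrain H2-DM, the ubiquitin ligase Marchf1 and the costimulator Cd80 lay under the filter.

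Interferon gamma induces Ciita, and of 11 genes listed for its signalling and for class II control 9 were tested. None passed limma (0, lowest adjusted p 0.279), with 1 lower and 0 higher at an unadjusted p of 0.05 and a median log2 change of -0.08. That gene was the kinase Jak1, at 3786, 3718 and 3953 units and then 2835, 3493 and 3153, a log2 change of -0.28 ± 0.08 SE. The receptor chain Ifngr1 had 0.20 ± 0.12 SE and Ifngr2 -0.06 ± 0.09, and the transcription factors Irf1 and Irf8 had -0.08 ± 0.09 and 0.21 ± 0.11. Ifng itself lay under the filter.

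MHC class I genes present peptides from the cytosol, and several lie in a block between class II genes on chromosome 17. Of 10 tested, 0 passed limma (lowest adjusted p 0.260), 2 were lower and 0 higher at an unadjusted p of 0.05, 9 had a change below 0, and the median was -0.11. The peptide transporter gene Tap1 had a log2 change of -0.40 ± 0.13 SE and the class I heavy chain H2-D1 -0.19 ± 0.05, both without overlap. In the order of the RefSeq table along the region the log2 changes were -0.30 for H2-DMa, 0.02 for H2-DMb2, -0.24 for Psmb9, -0.40 for Tap1, -0.03 for Psmb8, -0.29 for Tap2, -0.15 for H2-Ab1, -0.11 for H2-Aa, -0.09 for H2-Eb1, 0.20 for H2-Eb2 and 0.09 for H2-Ea. The 4 class I genes from Psmb9 to Tap2 form a block between class II genes. The log2 changes were below 0 from Psmb9 through H2-Eb1 and above 0 for H2-DMb2, H2-Eb2 and H2-Ea.

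Markers of cells that carry class II molecules were measured beside the members. All 15 macrophage markers were tested, 11 had a change below 0 and none was at 0 units; 0 passed limma over all probe sets (lowest adjusted p 0.0838), 4 were lower and 0 higher at an unadjusted p of 0.05, and the median log2 change was -0.18. Their summed intensity was 23553 to 24737 units at 46 h and 21240 to 22340 at 54 h, so the times did not overlap. The sums of the class I, interferon gamma and endothelial lists were likewise lower at 54 h without overlap. The 4 lower macrophage markers were the lysozyme gene Lyz2 (-0.37 ± 0.06 SE), the complement genes C1qc (-0.38 ± 0.10) and C1qb (-0.14 ± 0.05), and the adaptor Tyrobp (-0.23 ± 0.08). These 4 kept the times apart, lower at 54 h, and 1 marker, Cd14, did so with higher values at 54 h (0.20 ± 0.09 SE). The defining markers Adgre1 and Csf1r had 0.01 ± 0.08 SE (interval -0.17 to 0.19) and 0.03 ± 0.11 SE (interval -0.22 to 0.27). The part of macrophage content in the class II values was not tested, and in whole glands fewer cells of a type and less RNA per cell cannot be told apart.

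Markers of other immune cells, dendritic and B cells among them as bearers of class II molecules, were read in the same way. Of 8 dendritic cell markers measured 6 were tested, with 0 past limma, 0 at an unadjusted p of 0.05 and a median of -0.01; their sum was 2008 to 2200 units at 46 h and 2007 to 2145 at 54 h. The dendritic cell markers Flt3 and Zbtb46 had -0.06 ± 0.11 SE and -0.04 ± 0.13. Of 8 B cell and plasma cell markers measured 6 were tested, with 0 past limma, 0 lower and 1 higher at an unadjusted p of 0.05, and sums of 1835 to 1974 and 1926 to 2305 units. That one was Jchain, the joining chain of secreted antibodies, at 359, 335 and 357 units and then 760, 467 and 570 (log2 change 0.72 ± 0.16 SE, limma adjusted p = 0.167). The B cell receptor gene Cd79a had 0.07 ± 0.14 SE, and Cd79b and Ms4a1 lay under the filter. Of 7 T and NK cell markers measured 5 were tested, with 0 past limma or at an unadjusted p of 0.05 and sums of 1881 to 2831 and 2216 to 2655 units. None of these lists had a gene at 0 units. That the members and the macrophage markers differ from the dendritic or B cell lists was not tested.

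**Figure D4:**
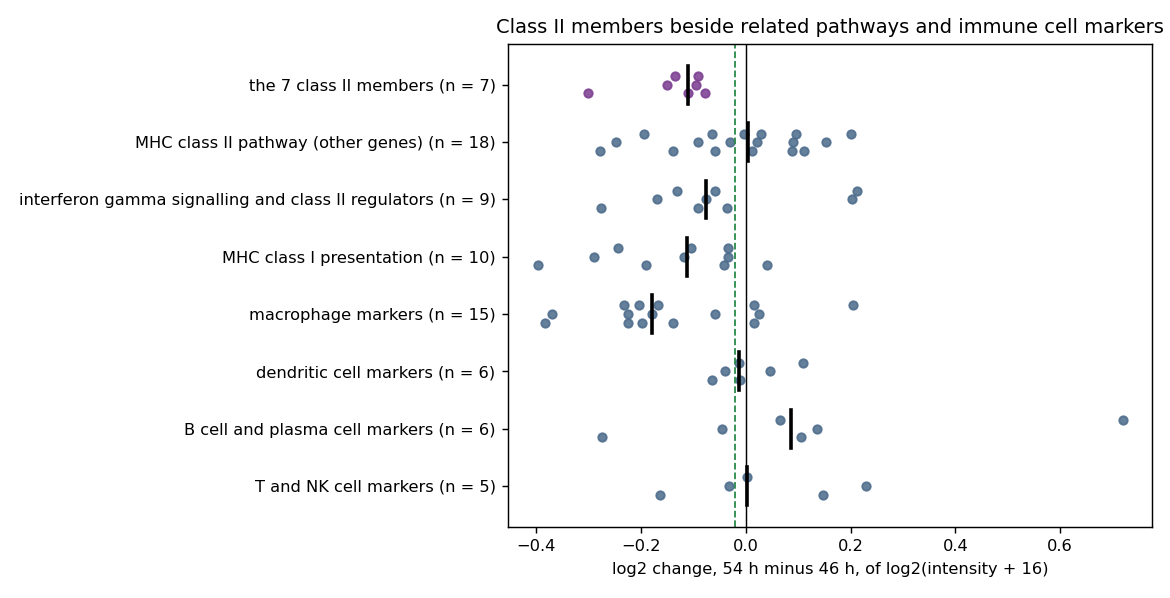
Log2 change from 46 h to 54 h of each gene tested, by its brightest probe set, for the 7 class II members and 7 related lists; black bars are medians and the dashed line is the median of all probe sets tested, -0.02. Medians are -0.11 for the members, 0.00 for the other class II pathway genes, -0.11 for class I presentation and -0.18 for macrophage markers.

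Some markers of neighbouring tissue also differed between the times. Liver markers were higher at 54 h, with 6 of 6 tested at an unadjusted p of 0.05 in limma, 2 of them past the adjusted threshold (Serpina1b and Cyp3a11), none at 0 units, and sums of 3325 to 5294 units at 46 h and 7543 to 11214 at 54 h. Adipose markers had 3 of 4 higher at that level (Lep, Ucp1 and Cidea), while Adipoq had -0.11 ± 0.11 SE with overlapping values. The adipose sums of 10102 to 14162 and 12816 to 15620 units overlapped, and no adipose marker was at 0. Of 6 endothelial markers 1 was lower and 0 higher, the receptor Kdr (-0.23 ± 0.05 SE, limma adjusted p = 0.205), with sums of 10666 to 12094 and 10092 to 10660 units. The part of these tissues in the class II values was not tested, and dissection cannot be told apart from time.

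The 5 genes outside these lists whose profile over the 6 arrays was most like the mean of the members were Gbp3, Acaa2, Pcsk1n, Nap1l5 and Clec11a. Their Pearson correlations were 0.988 to 0.995, the highest among 13676 genes compared, over arrays that share a scale. Gbp3, an interferon-induced guanylate-binding protein, read 689, 516 and 665 units and then 461, 430 and 350, a log2 change of -0.57 ± 0.15 SE. The mitochondrial thiolase gene Acaa2 had -0.13 ± 0.04 SE, Pcsk1n, which encodes the neuroendocrine protein proSAAS, had -0.25 ± 0.07, Nap1l5 had -0.42 ± 0.09 and the secreted lectin gene Clec11a had -0.19 ± 0.11. None passed limma over all probe sets (adjusted p between 0.127 and 0.602).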

How the data were processed

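The authors deposited 1 linear intensity per probe set and array; the probe summary, background correction and normalization are not given in the sources used here. Of 45001 probe sets, 64 controls, 1 without values and 1 with a damaged value were left out. The platform annotation named 1 gene for 34848 probe sets, several for 928 and none for 9159, and 34644 of the first had their gene ID in a RefSeq table (GRCm38.p6), which changed 0 symbols. The 54 h and 46 h arrays were compared on log2(intensity + 16) in limma 3.58.1 (R 4.3.3; lmFit, eBayes with an intensity trend, two-sided, Benjamini-Hochberg over all 26961 probe sets above the 40th percentile). The procedure was tested on simulated data. An exact permutation test of 3 against 3 arrays cannot go below 0.1. Named were all member probe sets, pathway genes, up to 4 genes and 2 markers of each of 11 lists (110 of 117 genes had a probe set), and the 5 most similar genes. Members and lists were chosen with earlier results of these data known. Tables and plots used Python 3.11.15 and matplotlib 3.10.9.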

Additional observations from a re-analysis of the deposited data

How the results depend on the processing

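Over 17 alternatives the median log2 change of the members stayed between -0.16 and -0.11. The fits without an intensity trend, with a robust option or with a replicate block leave every change as it was, so they could not move this median. The count of member probe sets past the limma threshold was 0 in all but 1: with array weights it was 8, and 3466 probe sets passed in all, with weights of 2.86 on 46h replicate 1 and 4.26 on 54h replicate C against 0.372 to 0.630 on the others. The count of 31 over all probe sets became 47 with quantile normalization, 50 with centring on array medians, 48 with a filter at the 60th percentile, 3 without an intensity trend, 61 with a robust fit and 13 genes with probe sets averaged. Leaving out each array gave 2 to 65 over all probe sets, 0 for the members, and medians from -0.16 to -0.12 for them. H2-Aa 1443783_x_at reversed to -0.010 with array weights and -0.019 without 54h replicate 1, and ranged up to 0.067 when single arrays were omitted; the cause was not tested. The other 12 member probe sets kept their direction in every alternative in which they were tested. With the replicate label as a replicate block 45 probe sets and 0 members passed, and the member median was -0.14. There 4 member probe sets had an unadjusted limma p under 0.05, all lower, against 3.64% of the whole table on the lower side. Arrays with the same label did not deviate together (correlations -0.06, -0.41 and -0.49), and 0 of 6 correlated best with their own label. With 3 arrays a group this cannot show whether the label marks a pairing. The dimmest member probe sets tested, those of H2-DMa and Ciita, had the widest intervals.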
